A study of Mus musculus with 10 samples.

Results

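Translation initiation and elongation factors were taken as the genes of the deposited count table whose symbol begins with Eif or Eef followed by a digit. This rule gave 68 of 17359 genes, of which 64 were among the 12789 genes with enough counts to be tested. Liver RNA came from mice on a high-fat diet, which all groups shared. In the weekly cycle, intake was cut by 50% on day 1, by 70% on days 2 and 3 and by 50% on day 4, and days 5 to 7 were unrestricted. The groups were ad libitum controls on the same diet (AL, n = 3), cycled mice at day 3, in the low-calorie phase (LC, n = 4), and cycled mice at day 7, in the refeeding phase (RF, n = 3). No source used here gives strain, sex, age, time of day or feeding state at collection. Whether each sample is its own animal is not stated either, so p-values reflect only how much these samples vary, which may be technical.

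Translation starts when the small ribosomal subunit, carrying initiator tRNA on the GTP-bound factor eIF2, is brought to the capped mRNA by the eIF4 factors and eIF3 and scans to a start codon. The liver makes most plasma proteins, and its translation is set by nutrients at well-known points: eIF4E binding proteins, which the kinase mTORC1 switches off, block the cap-binding factor eIF4E, and kinases that phosphorylate the alpha subunit of eIF2 block the exchange factor eIF2B. Elongation then depends on eEF1A, which delivers aminoacyl-tRNA, and eEF2, which moves the ribosome along and is inhibited by its own kinase, eEF2K.

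Levels are CPM, counts on a common library total adjusted by TMM factors (edgeR's trimmed mean scaling), and are listed by replicate number (2, 3 and 4 for AL, 1 to 4 for LC, 1 to 3 for RF). A gene was called where edgeR's quasi-likelihood test gave an adjusted p (Benjamini-Hochberg, taken over the whole table) below 0.05. At LC against AL, 24 of the 64 factors were called, 5 higher and 19 lower, against a background of 31.5% of all genes called, 16.0% higher and 15.6% lower. The factors' shares were 7.81% higher and 29.7% lower. Their median log2 fold change was -0.21, against 0.05 over all genes. The groups did not overlap for 5 factors that were higher and 20 that were lower, where 18.7% and 17.1% of all genes did so. At RF against AL no factor was called by edgeR or DESeq2. Over all genes edgeR called 0.0547%, 0.0156% higher and 0.0391% lower, and DESeq2 called 39 genes higher and 61 lower. Without adjustment, 4 factors had an edgeR p below 0.05, as did 1381 of the 12789 genes. At RF against LC, 10 factors were higher and 3 lower, against 22.1% of all genes called, 11.4% higher and 10.7% lower, with a median of 0.11 against -0.02 over all genes. In the last comparison 18 factors lay above LC without overlap and 7 below, where 17.7% and 16.5% of all genes did so. Each pair of these comparisons shares the libraries of a group.

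The direction of the group as a whole depended on the scaling. Scaled to totals only, the all-gene median at LC against AL moved from 0.05 to 0.36, the factors' median moved to 0.10, and 11 factors were called higher and 3 lower. The factors' median therefore lay below that of all genes under both scalings. Over all 12789 genes, library totals called 4395 higher and 686 lower, where TMM called 2045 and 1989. At RF against LC library totals gave 4 factors higher and 12 lower, with medians of -0.10 for the factors and -0.22 for all genes. Over all genes they called 673 higher and 2724 lower, where TMM called 1452 and 1369. Single libraries also moved the counts, of the factors and of all genes. At LC against AL the fit without AL replicate 3 called 2 factors higher and 6 lower, without AL replicate 4 it was 2 and 7, and without LC replicate 1 it was 3 and 13. Over all genes, in the same order, these fits called 959 higher and 1151 lower, 1196 and 1361, and 1539 and 1617. At RF against LC the counts of factors were 3 and 1 without RF replicate 2, 3 and 2 without RF replicate 3, 6 and 1 without RF replicate 1, 4 and 2 without LC replicate 1, and 12 and 5 without AL replicate 2. Those of all genes, in the same order, were 792 and 643, 874 and 768, 1003 and 914, 1064 and 966, and 1604 and 1537.

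5 calls at LC against AL were made under each of the 20 alternatives, library totals included: Eif4ebp2, Eif5a and Eif2s1 were lower, and Eif2s3y and Eif4enif1 were higher. At RF against LC, Eif4ebp2 and Eif2s1 (higher) and Eef2kmt (lower) were called under each of the 20. Leaving out any 1 library kept 8 of the 24 calls at LC against AL, the same 5 with Eif2s3x, Eif2b1 and Eef1e1, and 3 of the 13 at RF against LC. The remaining calls were lost in at least 1 such fit. Library totals kept 8 of the 24 calls at LC against AL: the 5 higher ones, Eif4ebp2, Eif5a and Eif2s1. They kept 7 of the 13 at RF against LC, losing Eif4e, Eef1e1, Eif1ax, Eif4e2, Eif2s3x and Eif4a1, and FPKM lost Eif5a as well.

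**Figure D1:**
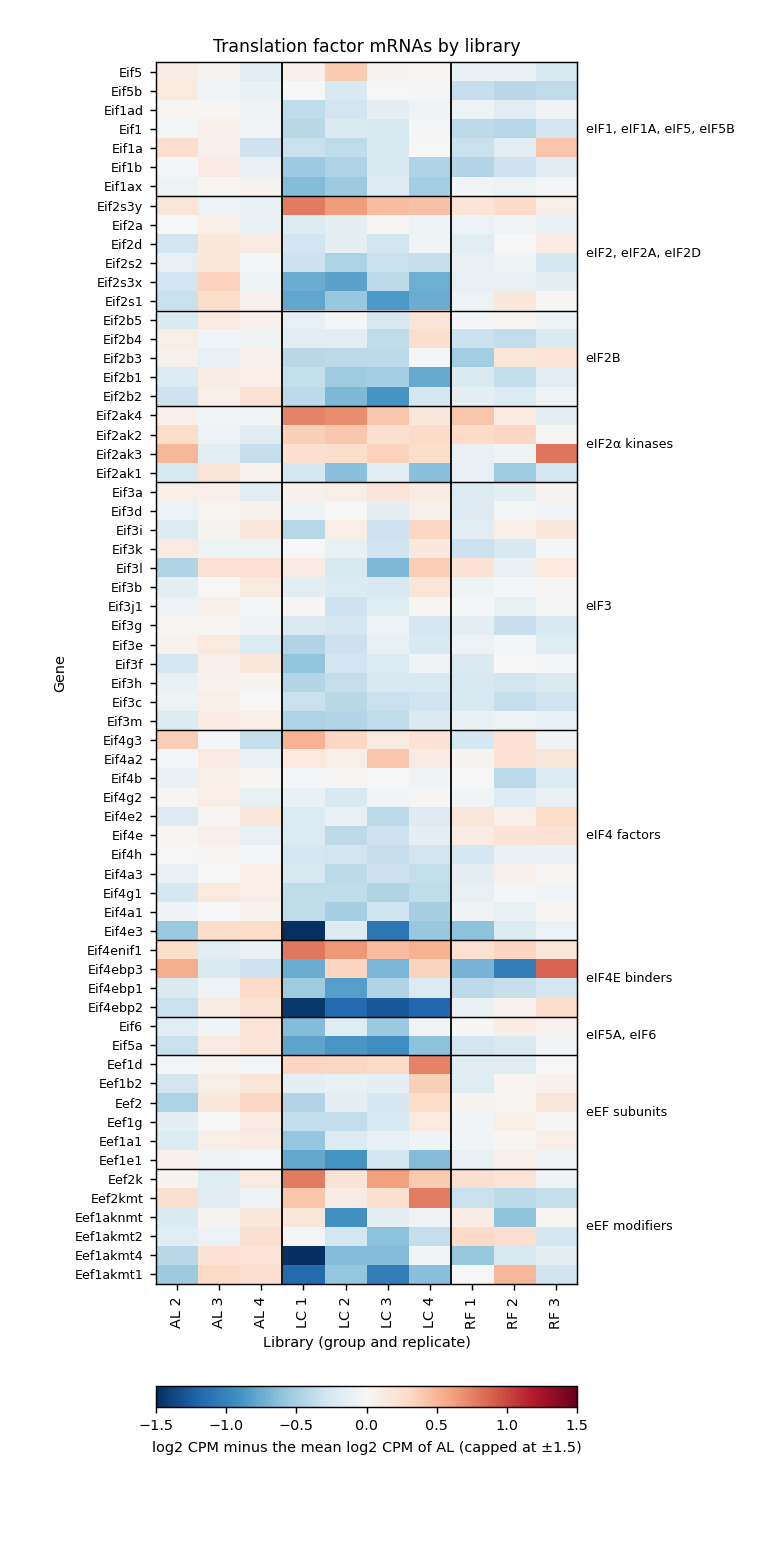
The 64 tested factors (vertical axis, grouped by role) in the 10 libraries (horizontal axis), coloured by log2 CPM minus the AL mean of that gene, TMM-scaled and capped at 1.5 either way. Blue prevails in the 4 LC columns, and the 3 RF columns are paler. Red marks the 5 factors called higher at LC (Eif2s3y, Eif4enif1, Eif2ak4, Eef2k and Eef1d) and some that were not called, such as Eef2kmt.

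Promoter windows are shown for Eif4ebp2, called under every alternative, and for paralog pairs whose members moved apart, all chosen after the calls were seen. Each is the 250 bases before the annotated start, 5′ to 3′ on the gene's strand, from RefSeq on build GRCm38.p6. Capitals mark a match to any of 9 motifs searched on both strands. The windows are Eif4ebp2 (chr10:61452670-61452919, minus strand), Eif4a1 (chr11:69672424-69672673, minus), Eif4a2 (chr16:23107218-23107467, plus), Eif2s3x (chrX:94212652-94212901, minus) and Eif2s3y (chrY:1010345-1010594, plus).
Eif4ebp2: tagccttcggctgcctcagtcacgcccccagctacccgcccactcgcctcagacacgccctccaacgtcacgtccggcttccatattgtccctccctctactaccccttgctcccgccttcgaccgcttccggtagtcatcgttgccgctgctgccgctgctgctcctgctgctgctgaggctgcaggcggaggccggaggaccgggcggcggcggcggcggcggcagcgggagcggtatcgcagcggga
Eif4a1: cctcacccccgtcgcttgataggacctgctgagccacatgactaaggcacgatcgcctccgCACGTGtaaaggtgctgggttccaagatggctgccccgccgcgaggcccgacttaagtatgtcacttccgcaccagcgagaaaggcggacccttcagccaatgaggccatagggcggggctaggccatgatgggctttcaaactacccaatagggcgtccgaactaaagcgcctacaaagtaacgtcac
Eif4a2: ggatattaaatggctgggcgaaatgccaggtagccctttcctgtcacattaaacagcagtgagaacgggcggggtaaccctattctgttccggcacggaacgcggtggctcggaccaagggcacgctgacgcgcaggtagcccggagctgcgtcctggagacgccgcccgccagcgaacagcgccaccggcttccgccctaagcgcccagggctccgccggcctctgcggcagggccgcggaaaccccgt
Eif2s3x: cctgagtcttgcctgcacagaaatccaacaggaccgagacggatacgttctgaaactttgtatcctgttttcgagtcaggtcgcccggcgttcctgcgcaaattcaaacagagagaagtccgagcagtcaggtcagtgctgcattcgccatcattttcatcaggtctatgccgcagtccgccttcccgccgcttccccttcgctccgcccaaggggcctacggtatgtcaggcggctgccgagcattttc
Eif2s3y: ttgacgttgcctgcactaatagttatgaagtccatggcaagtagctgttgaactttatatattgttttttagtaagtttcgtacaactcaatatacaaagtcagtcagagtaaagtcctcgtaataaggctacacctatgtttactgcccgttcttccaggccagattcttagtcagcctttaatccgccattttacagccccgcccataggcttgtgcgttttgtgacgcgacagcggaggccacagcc

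The Eif4a1 window held an E-box, CACGTG, 189 bases before the start, and the other windows held none of the motifs. The windows of Eif4a1 and Eif4a2 were 48.5% identical in a global alignment, and those of Eif2s3x and Eif2s3y 57.7%. Windows were found for 53 of the 68 factors. CACGTG was in 13 of them (24.5%), against 9.78% of 10242 tested genes with a window and 6.86% of all 27025 genes. The carriers were Eef1akmt4, Eef1aknmt, Eef2, Eef2k, Eif1b, Eif3f, Eif3k, Eif4a1, Eif4e, Eif4g1, Eif4h, Eif5a and Eif5a2. Among factors with a window it was in 5 of 16 called lower at LC, 1 of 4 called higher and 6 of 31 not called. CCGGAAGT was in 5 factors (9.43%, against 6.4% of tested genes) and the NRF1 motif in 1 (1.89%, against 1.86%). TGACGTCA (2.84% of tested genes), TGACGTGA (0.615%), TGATGCAA (0.683%), TGATGNAAT (0.586%), ATGCAAAT (1.54%) and a palindrome of 10 bases (0.947%) were in none. TGATGCAA and TGATGNAAT can overlap. With the 50 bases after the start included, CACGTG was in 14 factors, CCGGAAGT in 9 and TGACGTCA in 1. A match is a description of the letters in the window.

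Among the factors that carry initiator tRNA, the subunits of eIF2 did not move alike. Eif2s1, the alpha subunit that the stress kinases phosphorylate, was at 22.4, 34.1 and 29.5 CPM at AL, 16.4, 19.1, 15.6 and 16.8 at LC, and 26.8, 31.6 and 28.6 at RF. Every LC library lay below every AL and RF library. The log2 fold change was -0.76 ± 0.15 (SE; edgeR adjusted p = 0.0025) at LC against AL, and 0.77 ± 0.15 (edgeR adjusted p = 0.0035) at RF against LC. Eif2s2, the beta subunit, was at 70.6 ± 7.06 CPM at AL (SD, n = 3), and at LC it was 54.6 ± 2.60 (n = 4), which gave -0.37 ± 0.11 on the log2 scale (edgeR adjusted p = 0.024). It was no longer called when LC replicate 2 or either of AL replicates 3 and 4 was left out.

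The gamma subunit, which binds the initiator tRNA, is encoded by an X-linked and a Y-linked gene. Eif2s3x was at 51.2, 79.4 and 59.9 CPM at AL, 37.4, 35.7, 47.6 and 37.7 at LC, and 57.3, 57.6 and 56.7 at RF. It fell at LC by 0.68 ± 0.15 on the log2 scale (edgeR adjusted p = 0.0047) and rose at RF against LC by 0.53 ± 0.15 (adjusted p = 0.023). The Y-linked Eif2s3y went the other way, at 75.3, 62.3 and 62.0 CPM at AL, 114, 102, 91.5 and 89.9 at LC, and 76.1, 80.9 and 70.7 at RF. Its LC libraries were above all others, with a log2 fold change of 0.58 ± 0.13 (edgeR adjusted p = 0.0048) at LC against AL and -0.39 ± 0.13 (adjusted p = 0.043) at RF against LC. The RF against LC call of Eif2s3x was lost without LC replicates 1, 2 or 4 or any RF library, and that of Eif2s3y without AL replicates 3 or 4, LC replicates 1 or 2 or any RF library. Divided by the transcript length that counts and FPKM imply, Eif2s3x was 31.1 ± 6.62% of the 2 genes' summed CPM per kb in the 3 AL libraries (mean ± SD), 16.0 ± 2.83% in the 4 LC libraries and 26.3 ± 1.16% in the 3 RF libraries. The sums themselves were 61.3 ± 3.43, 74.9 ± 6.33 and 65.3 ± 3.36 CPM per kb. These shares were computed after the values were seen and carry no test. Counts of Eif2s3y were not whole in 9 libraries, as happens where counting divides reads between genes, while those of Eif2s3x were whole. Other Y-linked genes, were named after their values were seen. At LC against AL Uty rose by 0.61 ± 0.19 on the log2 scale (edgeR adjusted p = 0.024), a call lost without AL replicates 3 or 4, without LC replicate 1, and with the length trend of each library removed (the length correction). Ddx3y had 0.42 ± 0.18 (adjusted p = 0.1), but was called higher under library totals (0.72, adjusted p = 0.0083), on FPKM and without AL replicate 2. Kdm5d had -0.15 ± 0.15 (adjusted p = 0.48), and 0.17 under library totals (adjusted p = 0.46). At RF against LC, where Eif2s3y fell, Kdm5d rose by 0.69 ± 0.15 (edgeR adjusted p = 0.0059), a call lost on FPKM. There Uty had -0.49 ± 0.18 (adjusted p = 0.071), called lower under library totals (-0.70, adjusted p = 0.022), and Ddx3y -0.22 ± 0.18 (adjusted p = 0.42).

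**Figure D2:**
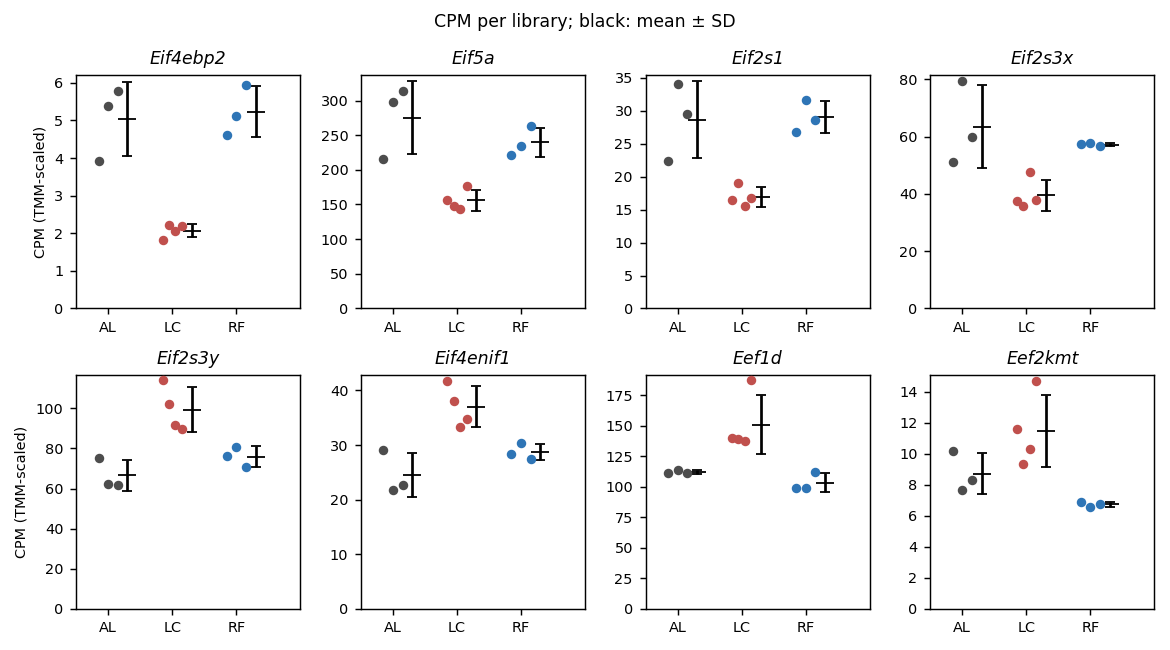
TMM-scaled CPM (vertical axes, from 0) of 8 factors in each library of AL, LC and RF (horizontal axes), with the mean ± SD in black. The LC points lie apart from AL and RF for Eif4ebp2, Eif5a, Eif2s1, Eif2s3x, Eif2s3y, Eif4enif1 and Eef1d, and for Eef2kmt apart from RF only.

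Of the 5 subunits of eIF2B, which reloads eIF2 with GTP, 2 (40.0%) were lower at LC and none higher. Over all genes 15.6% were lower and 16.0% higher. Eif2b1, the alpha subunit, was at 27.7 ± 3.32 CPM in the 3 AL libraries (SD) and 19.1 ± 2.19 in the 4 LC libraries, which gave -0.54 ± 0.13 (edgeR adjusted p = 0.0087), with no overlap. Eif2b2, the beta subunit, fell by 0.55 ± 0.18 on the log2 scale (adjusted p = 0.031), although LC replicate 4, at 10.9 CPM, was above AL replicate 2, at 10.5, and the call was lost without AL replicates 3 or 4 or LC replicates 2 or 3. Eif2b5, the catalytic subunit, had -0.05 ± 0.13 (adjusted p = 0.79), Eif2b3 -0.30 ± 0.18 (adjusted p = 0.23) and Eif2b4 -0.10 ± 0.14 (adjusted p = 0.62).

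Which of the 4 kinases of eIF2 alpha were called depended on the fit. Eif2ak4, which encodes GCN2, the sensor of uncharged tRNA, was at 9.86, 9.13 and 9.10 CPM at AL, 15.7, 15.2, 12.4 and 10.5 at LC, and 12.5, 10.3 and 8.50 at RF. It was 1.44-fold higher at LC (log2 0.52 ± 0.18; edgeR adjusted p = 0.04), with no overlap, and the call was lost without any of the 3 AL libraries, without LC replicates 1 or 2, without RF replicate 2, with AL and LC fitted alone, and with the length correction. Eif2ak3, which encodes the endoplasmic reticulum kinase PERK, was at 14.4 ± 4.72 CPM at AL and 16.9 ± 0.501 at LC (adjusted p = 0.48). RF replicate 3 held 24.4 CPM of it against 12.9 and 13.3 in the other RF libraries. Eif2ak2, the kinase PKR, had 0.31 ± 0.13 (adjusted p = 0.092), and was called higher under library totals (0.62, adjusted p = 0.0061), on FPKM and without AL replicate 2. Eif2ak1, the haem-regulated kinase, had -0.42 ± 0.16 (adjusted p = 0.055), and was called lower with relative log expression scaling (adjusted p = 0.045), by DESeq2 (adjusted p = 0.044), with the length correction, and without AL replicate 2 or LC replicate 3.

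Of 7 factors of scanning and subunit joining, 2 (28.6%) were lower at LC and none higher, where 15.6% and 16.0% of all genes were. Eif1ax, which encodes the scanning factor eIF1A, was at 29.2, 31.5 and 32.0 CPM at AL, 19.7, 21.1, 27.0 and 21.7 at LC, and 30.1, 29.2 and 30.2 at RF. Its log2 fold change was -0.47 ± 0.13 at LC against AL (edgeR adjusted p = 0.013) and 0.42 ± 0.13 at RF against LC (adjusted p = 0.031). The former was lost without AL replicates 3 or 4, and the latter without LC replicates 1, 2 or 4 or any RF library. Eif1a, another eIF1A gene, was at 39.2 ± 7.52 CPM at AL, above the 30.9 ± 1.49 of Eif1ax, and was not called. It had -0.25 ± 0.18 at LC against AL (adjusted p = 0.32) and 0.24 ± 0.18 at RF against LC (adjusted p = 0.37). Eif1b, a paralog of the start-codon fidelity factor Eif1, fell by 0.42 ± 0.13 at LC (adjusted p = 0.025), was no longer called when AL replicate 3 or LC replicate 1 was left out, and stood at 17.1 ± 1.51 CPM at RF against 21.2 ± 1.75 at AL. Eif1 itself was 473 ± 25.9 CPM at RF and 611 ± 28.7 at AL without overlap, but the log2 fold change of -0.37 ± 0.14 did not pass (adjusted p = 0.36). Eif5b, which joins the ribosomal subunits, showed the same arrangement, at 89.7 ± 2.37 against 117 ± 10.2 CPM (adjusted p = 0.31). At RF against AL 11 factors lay below AL without overlap and 1 above, where 9.56% and 9.38% of all genes did so.

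3 of 13 tested subunits of eIF3 (23.1%), the scaffold of the initiation complex, were lower at LC and none higher, with a median of -0.11. Over all genes 15.6% were lower and 16.0% higher, with a median of 0.05. Eif3c was at 84.4, 94.1 and 88.1 CPM at AL and 70.5, 66.7, 70.2 and 72.2 at LC, a log2 fold change of -0.35 ± 0.10 (edgeR adjusted p = 0.022). Eif3m (-0.38 ± 0.12, adjusted p = 0.026) and Eif3h (-0.32 ± 0.11, adjusted p = 0.04) were lower as well. The other 10 tested subunits ranged up to 0.11, the value of Eif3a. Each of the 3 calls was lost under library totals and without AL replicates 3 or 4, those of Eif3m and Eif3h also without LC replicate 1, and that of Eif3h without LC replicate 2 or any RF library.

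The eIF4 factors, which bind the cap, scaffold the complex and unwind the leader, had 4 of 11 (36.4%) lower at LC and none higher. Over all genes 15.6% were lower and 16.0% higher. Eif4g1, the main scaffold, was at 207, 271 and 264 CPM at AL and 189, 188, 179 and 189 at LC (log2 -0.41 ± 0.12; edgeR adjusted p = 0.022). Eif4a3, the helicase of the exon junction complex, had -0.33 ± 0.11 (adjusted p = 0.037), and Eif4h, a helicase cofactor, -0.30 ± 0.10 (adjusted p = 0.043). The call of Eif4g1 was lost without AL replicates 3 or 4, that of Eif4a3 in 6 of the 10 fits without a library and that of Eif4h in all 10. The value of Eif4h turned to 0.02 with library totals and 0.01 on FPKM. Eif4e, the cap-binding protein, was at 38.9, 40.1 and 35.3 CPM at AL, 32.9, 28.9, 30.8 and 34.5 at LC, and 41.0, 43.7 and 44.4 at RF. The 3 groups did not overlap, and it rose by 0.44 ± 0.11 at RF against LC (adjusted p = 0.014) but was not called at LC against AL (-0.26 ± 0.11, adjusted p = 0.089); the call was lost without RF replicates 2 or 3, and under library totals and on FPKM (0.23, adjusted p = 0.17). Eif4e2, a cap-binding homolog named after its values were seen, had 0.40 ± 0.12 at RF against LC (adjusted p = 0.033), a call lost in 6 of the 10 fits without a library.

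The helicase paralogs Eif4a1 and Eif4a2 differed. Eif4a1 was at 265, 278 and 285 CPM at AL, 212, 195, 224 and 195 at LC, and 266, 256 and 279 at RF, with log2 fold changes of -0.42 ± 0.11 at LC against AL (edgeR adjusted p = 0.014) and 0.37 ± 0.11 at RF against LC (adjusted p = 0.032). The former call was lost without AL replicates 3 or 4, and the latter without LC replicates 1, 2 or 4 or any RF library. Eif4a2 was at 306 ± 26.4, 350 ± 35.3 and 337 ± 20.5 CPM in the same order of groups (0.19 ± 0.13 at LC against AL, adjusted p = 0.27). Which paralog was called turned with the scaling: under library totals Eif4a2 was called higher (0.52, adjusted p = 0.008) and Eif4a1 was not called (-0.10, adjusted p = 0.55), likewise on FPKM. A ratio within a library does not depend on scaling. On FPKM, Eif4a1 over Eif4a2 was 1.24, 1.13 and 1.37 at AL, 0.884, 0.841, 0.780 and 0.817 at LC, and 1.18, 1.01 and 1.13 at RF. The LC ratios lay below all others, and the log2 ratio of counts differed by -0.61 from AL (exact two-sided permutation p = 0.0571, the smallest that 3 against 4 allows; adjusted over 7 pairs and 3 comparisons, 0.2).

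With TMM scaling the largest change of any factor was in Eif4ebp2, an eIF4E binding protein. It was at 3.93, 5.38 and 5.79 CPM at AL, 1.82, 2.22, 2.05 and 2.20 at LC, and 4.62, 5.13 and 5.95 at RF. All LC libraries were below all others. It was 2.43-fold lower at LC than at AL (log2 -1.28 ± 0.21; edgeR adjusted p = 0.001) and 2.52-fold higher at RF than at LC (log2 1.34 ± 0.21; adjusted p = 0.0015). At RF against AL the value was 0.06 ± 0.22 (adjusted p = 0.95). On log2(FPKM + 1), which understates the change of low genes, its LC against AL value was -0.65, smaller in size than the 0.87 of Eif2s3y, the 0.82 of Eif4enif1 and the 0.77 of Eef1d.

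Eif4ebp1, the best-known binding protein, was at 30.6, 34.2 and 43.4 CPM at AL and 24.7, 20.1, 26.0 and 31.0 at LC, where LC replicate 4 passed AL replicate 2 (log2 -0.50 ± 0.16; edgeR adjusted p = 0.025), and the call was lost without AL replicates 3 or 4 or LC replicates 1 or 2. Eif4ebp3 ranged from 19.8 to 41.7 CPM within LC and from 16.1 to 60.5 within RF, a spread wider than the difference between groups (-0.15 ± 0.51, adjusted p = 0.85). The fourth binder, Eif4enif1 (4E-T, which represses and stores mRNA), was at 29.1, 21.7 and 22.6 CPM at AL, 41.8, 38.1, 33.3 and 34.8 at LC, and 28.4, 30.4 and 27.4 at RF. It was 1.51-fold higher at LC, with no overlap (log2 0.60 ± 0.13; adjusted p = 0.0052). On FPKM, Eif4e over Eif4ebp2 was 6.24 at AL, 12.7 at LC and 6.85 at RF as geometric means, and the log2 ratio of counts at LC exceeded AL by 1.00 without overlap (exact two-sided permutation p = 0.0571, adjusted 0.2). No ratio of the 7 pairs reached an adjusted p below 0.2.

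**Figure D3:**
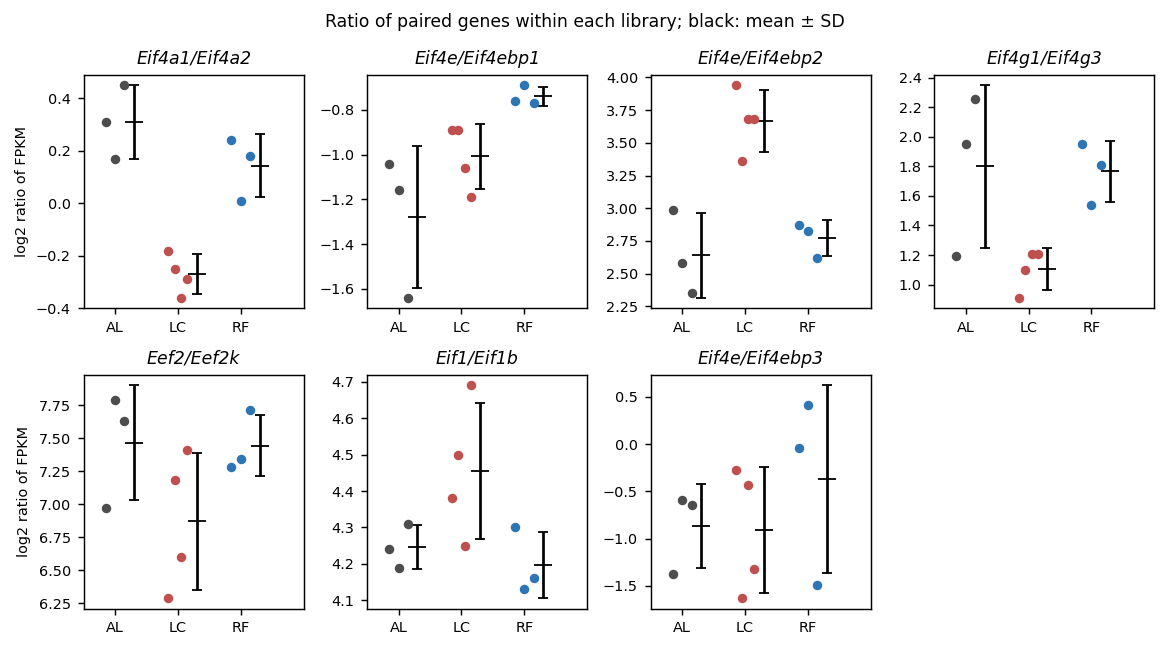
Log2 ratio of FPKM (vertical axes, each with its own range) of 7 pairs of factors in every library of AL, LC and RF (horizontal axes), with mean ± SD in black. The LC points are apart from both other groups for Eif4a1/Eif4a2 and Eif4e/Eif4ebp2.

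Eif5a, which helps the ribosome through hard-to-join residues and carries the amino acid hypusine, was at 215, 298 and 313 CPM at AL, 157, 148, 143 and 177 at LC, and 222, 234 and 263 at RF. Every LC library was below every other. It was 1.76-fold lower at LC (log2 -0.81 ± 0.15; edgeR adjusted p = 0.0016) and rose again by 0.62 ± 0.15 at RF against LC (adjusted p = 0.011; not called without RF replicate 3 or on FPKM, where it was 0.32 with an adjusted p of 0.068). Its counts were not whole in any of the 10 libraries, and the RefSeq table places Gps2 over it, so part of its reads may be uncertain. Eif6, which keeps the ribosomal subunits apart, was at 27.0 ± 3.47 CPM at AL and 21.3 ± 4.29 at LC (-0.34 ± 0.16, adjusted p = 0.11).

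The elongation factors themselves were mostly not called. Eef1a1, the most abundant factor per length at 1980 ± 182 FPKM at AL (SD, n = 3), had a log2 fold change of -0.23 ± 0.15 at LC (edgeR adjusted p = 0.24), and Eef2 had -0.15 ± 0.19 (adjusted p = 0.58), with AL libraries at 541, 838 and 926 CPM. Of the exchange factor eEF1B, Eef1d, the delta subunit, was at 111, 114 and 111 CPM at AL, 140, 139, 137 and 187 at LC, and 99.1, 99.0 and 112 at RF. All LC libraries were above the rest, at 0.43 ± 0.13 against AL (edgeR adjusted p = 0.027), and RF was lower than LC by -0.54 ± 0.13 (adjusted p = 0.013). The call against AL was lost without LC replicate 4, AL replicate 3 or AL replicate 4, and that against LC without RF replicates 1 or 2. Eef1b2 and Eef1g, the beta and gamma subunits, had -0.01 ± 0.16 and -0.19 ± 0.14 (adjusted p = 0.98 and 0.32). Eef1e1, despite its name a part of the aminoacyl-tRNA synthetase complex, fell from 10.1 ± 0.480 to 6.50 ± 1.26 CPM (log2 -0.63 ± 0.17; adjusted p = 0.013) and rose by 0.60 ± 0.17 at RF against LC (adjusted p = 0.022), where the call was lost without LC replicate 1 or RF replicates 2 or 3. Both calls were also lost under library totals, on FPKM and with the length correction, which gave -0.40 at LC against AL (adjusted p = 0.1).

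Of the enzymes that modify elongation factors, Eef2k, the kinase that inhibits eEF2, was at 8.68, 7.41 and 9.24 CPM at AL and 14.4, 9.60, 12.9 and 11.0 at LC, without overlap (log2 0.50 ± 0.17; edgeR adjusted p = 0.039). Its call was lost in 6 of the 10 fits that left out a library, with no filter on low counts, with AL and LC fitted alone, and with the length correction (0.31, adjusted p = 0.2). Eef1akmt1, a lysine methyltransferase of eEF1A, fell by 0.88 ± 0.27 at LC (adjusted p = 0.023) and rose by 0.94 ± 0.26 at RF against LC (adjusted p = 0.022). These calls were lost without AL replicates 3 or 4 or LC replicates 1 or 3, and without LC replicates 1 or 3 or RF replicate 2, in that order. Eef2kmt, a lysine methyltransferase of eEF2, was at 10.2, 7.65 and 8.34 CPM at AL, 11.6, 9.36, 10.3 and 14.7 at LC, and 6.90, 6.59 and 6.76 at RF. It was lower at RF than at LC (log2 -0.77 ± 0.18; adjusted p = 0.011), while LC against AL was not called (0.40 ± 0.18, adjusted p = 0.11). The 4 untested factors were Eif3j2 (0.185 to 0.858 CPM), Eif5a2 (0.0690 to 0.502 CPM), Eef1a2, which had 1 LC library above 0, and Eef1akmt3, which had 1 AL library above 0.

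**Figure D4:**
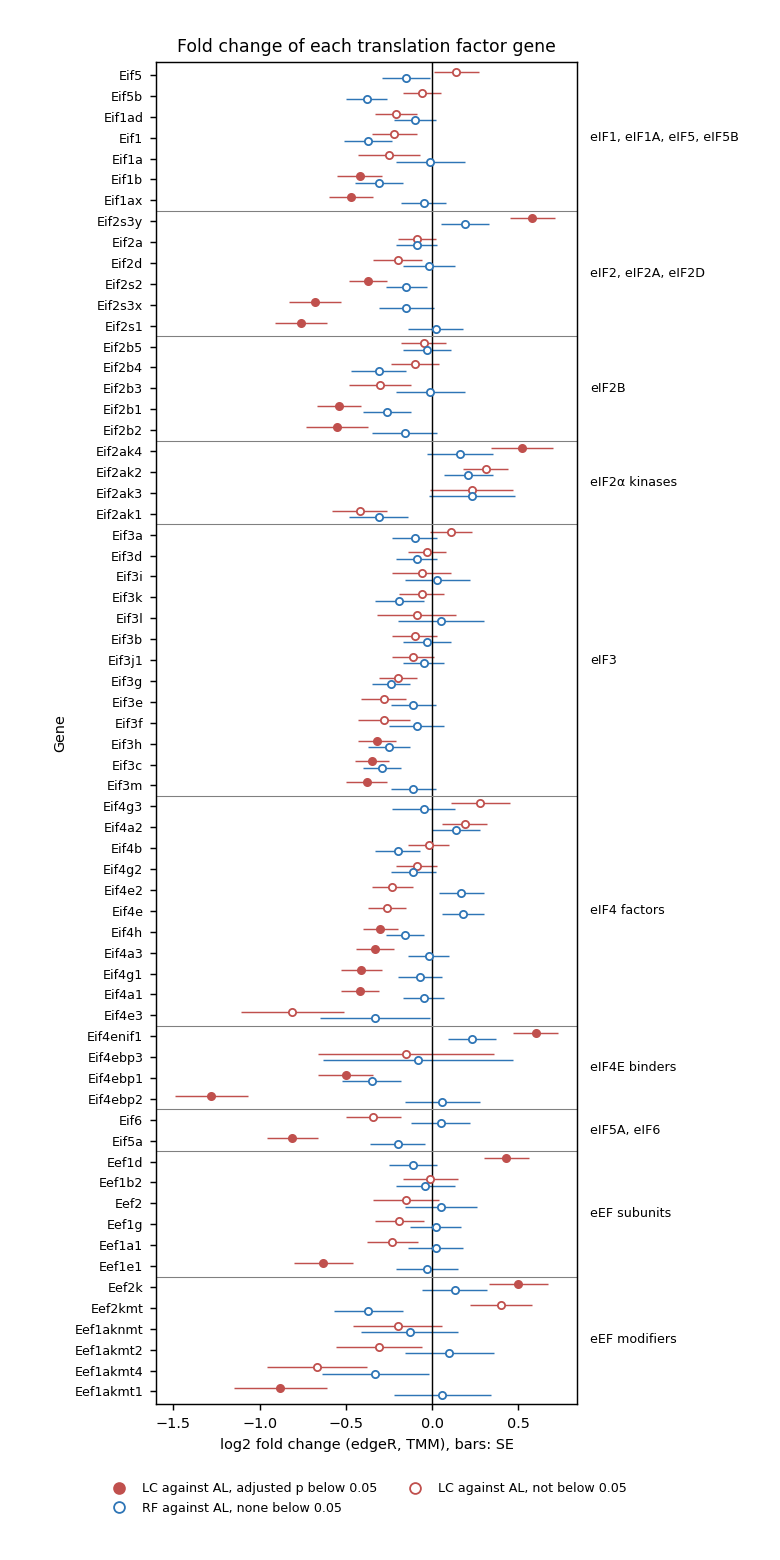
Log2 fold change (horizontal axis, bars are SE) of the 64 tested factors by role (vertical axis), LC against AL in red and RF against AL in blue, filled where the edgeR adjusted p was below 0.05. Filled points occur only for LC against AL, 19 of them to the left of 0 and 5 to the right.

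Genes that work with these factors were read from lists outside the Eif and Eef names. Of 10 mitochondrial translation factors, 3 were lower at LC and none higher: Mrrf, which recycles the mitochondrial ribosome (log2 -1.10 ± 0.16; edgeR adjusted p = 0.00058), Gfm1, the translocase (-0.89 ± 0.16, adjusted p = 0.0017), and Tufm, which delivers aminoacyl-tRNA (-0.71 ± 0.22, adjusted p = 0.028). Of 12 partners of the cap and poly(A) tail, 1 was higher and 2 lower: Pabpc4, a poly(A) binding protein (0.74 ± 0.13, adjusted p = 0.0015), Paip2b, an inhibitor of such proteins (-0.78 ± 0.21, adjusted p = 0.014), and Mknk2, a kinase of eIF4E (-0.56 ± 0.19, adjusted p = 0.041). Of 5 eIF2 phosphatase subunits and kinase regulators, Gcn1, the activator of GCN2, was higher (0.49 ± 0.13, adjusted p = 0.011), Dnajc3, an inhibitor of eIF2 alpha kinases, was lower (-0.69 ± 0.15, adjusted p = 0.0041), and Ppp1r15a had 0.06 ± 0.14 (adjusted p = 0.78). Of 8 tested termination and recycling genes, 2 were lower, Abce1, which splits the ribosome (-0.43 ± 0.12, adjusted p = 0.014), and Denr, a reinitiation factor (-0.44 ± 0.13, adjusted p = 0.02, but 0.08 on FPKM). Hbs1l, of the same list, was not called with TMM (0.25). It was called higher under library totals (0.55, edgeR adjusted p = 0.0073) and on FPKM. Of 9 hypusine and diphthamide enzymes, 1 was lower, Dnajc24 (-0.79 ± 0.23, adjusted p = 0.019). Dph1, another diphthamide enzyme, was called higher under library totals (0.64, adjusted p = 0.012) and on FPKM. Of these 11 calls at LC against AL, library totals and FPKM kept those of Mrrf, Gfm1, Pabpc4 and Gcn1. Tufm then had -0.39 under totals (adjusted p = 0.12), Mknk2 -0.24 (adjusted p = 0.29), Paip2b -0.47 (adjusted p = 0.086) and Dnajc24 -0.47 (adjusted p = 0.13). Without AL replicate 3 the calls of Tufm, Mknk2, Paip2b, Dnajc24, Gcn1, Abce1 and Denr were lost, and without AL replicate 4 those of Tufm, Mknk2, Paip2b, Dnajc24 and Denr. Leaving out LC replicate 1 lost Tufm, Mknk2, Dnajc24 and Denr, LC replicate 3 Tufm and Mknk2, and LC replicate 4 Mknk2. None of these lists held a called gene at RF against AL.

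Fold change against AL moved with transcript length at LC and at RF. The implied length had a median of 3.31 kb over factors called higher at LC, 1.54 kb over those called lower and 1.82 kb over all 64. Across genes, which share libraries and are not replicates, Pearson's r of the LC against AL fold change with log2 length was 0.37 over the factors and 0.24 over all genes tested. At RF against AL r was 0.22 over the factors and 0.23 over all genes. At RF against LC r was -0.29 and -0.11. With the length trend of each library removed, an alternative added after the data were seen, 3 factors were called higher and 12 lower at LC against AL. Over all genes this correction called 1651 higher and 1939 lower. The calls it removed were those of Eef2k and Eif2ak4, which were higher, and of Eef1e1, Eif1b, Eif2b2, Eif3h, Eif3m, Eif4a3, Eif4ebp1 and Eef1akmt1, which were lower, and it added Eif2ak1. It also removed the calls of Tufm, Dnajc24, Gcn1 and Denr. Its part in the remaining calls was not tested.

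**Figure D5:**
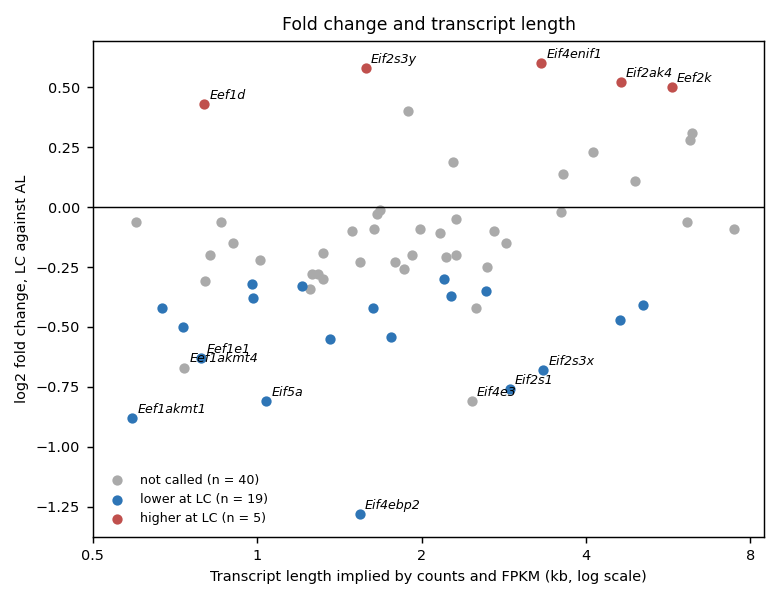
Log2 fold change at LC against AL (vertical axis) of each tested factor against the transcript length implied by counts and FPKM (horizontal axis, log scale), coloured by the call. The factors called higher have a median of 3.31 kb and those called lower 1.54 kb.

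Library totals were 13871533 to 15899479 counts, and the factors together took 0.798 to 0.979% of them. In a bulk sample, fewer cells of a type and less RNA per cell cannot be told apart. Albumin (Alb), the defining product of hepatocytes, was at 58883 ± 8173 CPM at AL. Hepatocyte markers were lower at LC for 6 of 9 genes. Their summed level was 83232 to 98750 CPM in AL libraries, 52547 to 67416 in LC and 77452 to 80767 in RF. As a percent of library totals, without TMM, AL and LC overlapped, at 7.76 to 9.01 and 5.63 to 7.92, with RF at 7.50 to 7.81. Sinusoidal endothelium markers were higher for 4 of 9, and their sum was 207 to 222, 309 to 339 and 273 to 318 CPM in the same order of groups. This list did not move as a whole at LC against AL. Its median log2 fold change was 0.07, against 0.05 over all genes, with 5 values above 0 and 4 below (-0.61 to 0.95). Kupffer cell and macrophage markers were lower for 2 of 9 (22.2%), erythroid for 2 of 5 (40.0%) and stellate cell for 1 of 8 (12.5%), where 15.6% of all genes were. Of the Kupffer list 4 values were above 0 and 5 below. In the adipocyte list only Cfd was tested, and it was lower. Adipoq, Plin1 and Retn had too few counts to be tested, so that list says little about adipocytes. Cholangiocyte markers were higher for 1 of 5 (20.0%, against 16.0% of all genes), and lymphocyte and pancreatic acinar lists held no call. At RF against LC, stellate cell markers were higher for 5 of 8, hepatocyte for 4 of 9, Kupffer cell and macrophage for 2 of 9 and erythroid for 1 of 5, and sinusoidal endothelium markers were higher for 2 of 9 and lower for 2. Over all genes 11.4% were higher and 10.7% lower at RF against LC. The part of these marker differences in the factors' changes was not tested. The libraries keep no strand, and 32 of the 68 factors overlap another gene in the RefSeq table, 17 of them a protein-coding gene, among these Eif4enif1 (Sfi1), Eef1d (Tigd5), Eef2kmt (Alg1) and Eif3m (Ccdc73).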

How the data were processed

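Liver poly(A) RNA of 10 libraries was sequenced without strand on BGI DNBSEQ, with RNA integrity numbers of 6.6 to 8.5, per the labels' protocols. The authors deposited expected counts per gene, estimated counts of which 10.9% were not whole (tolerance 1e-06), and FPKM, scaled by length and depth. Per the submitters' processing notes, the tools were HISAT and Bowtie2 and the build GRCm39; no source used here gives the counter or the annotation. Among the 68 genes, 11 had a count that was not whole.

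Expected counts were rounded. Genes passed filterByExpr (minimum count 10), libraries were scaled by TMM, and edgeR 4.0.16 (R 4.3.3) fitted 3 group means over the 10 libraries with robust glmQLFit, tested with glmQLFTest and adjusted by Benjamini-Hochberg over 12789 genes. Each SE is the fold change's absolute log2 value divided by the root of F. The steps were tested on simulated counts. Alternatives were DESeq2 1.42.0, other scalings and filters, compared groups alone, limma 3.58.1 on log2(FPKM + 1) and log2(FPKM + 0.1), a replicate block, each library left out and, added after the data were seen, a length correction. Ratios of 7 pairs were tested by exact permutation, which cannot go below 0.0571 for 3 against 4 or 0.1 for 3 against 3.

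The members, lists and rule were chosen with earlier results of these data known. Named were a core set, the up to 4 members per role with the smallest p at LC against AL, members called at RF against AL, the 6 largest rises and falls at RF against LC, and the up to 3 genes with the smallest p of each other list, of which those called, Ppp1r15a, Dph1 and Hbs1l are printed. Genes said to be named after their values were seen fall outside this rule, as do Eif1a, Eif3a, Eif5b and Eef1b2. 9 promoter motifs were searched, and the motifs, the windows and the 5 promoters printed were chosen after the calls were seen. The promoter and overlap tables are RefSeq GRCm38.p6, another build than the files'.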

Additional observations from a re-analysis of the deposited data

Results flagged for a closer look

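In 8 of the 43 factors examined a single LC library lay far from the other 3, by a test of the gap over the range of the group (Dixon's test). Chance gives this in about 1 in 20 independent groups, but the factors share the same LC libraries. The rate over all genes was not computed, so the number cannot be read as a trait of these factors. LC replicate 4 was highest for Eef1d, at 187 CPM against 137 to 140, and for Eif2b3, at 12.1 against 9.23 to 9.42. LC replicate 3 was highest for Eif2s3x, at 47.6 against 35.7 to 37.7, for Eif4a2, at 403 against 326 to 337, and for Eif2ak3, at 17.7 against 16.6 to 16.8. The same library was lowest for Eif4g1, at 179 CPM against 188 to 189, and for Eif4h, at 78.8 against 82.7 to 83.3. LC replicate 2 was lowest for Eif2s2, at 50.8 CPM against 55.5 to 56.4. The calls at LC against AL of Eef1d, Eif2s2 and Eif4h were lost without that library, and those of Eif2s3x and Eif4g1 were not. Eif2ak3, Eif2b3 and Eif4a2 were not called.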

How the results depend on the processing

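At LC against AL, where 5 factors were called higher and 19 lower, library totals gave 11 and 3, limma on FPKM 11 and 3 with either pseudocount, the compared groups alone 2 and 16, and the length correction 3 and 12. Over all genes the main fit called 2045 higher and 1989 lower, and library totals 4395 and 686. FPKM gave 4291 and 708 with pseudocount 1, and 4294 and 715 with 0.1. The compared groups alone gave 1672 and 1838, and the length correction 1651 and 1939. Leaving out a library gave 2 to 5 factors higher and 6 to 20 lower. Over all genes it gave 959 to 2186 higher and 1151 to 2167 lower. At RF against LC, where 10 factors were higher and 3 lower, library totals gave 4 and 12, FPKM 3 and 9, and leaving out a library 3 to 12 higher and 1 to 5 lower. Over all genes the main fit called 1452 higher and 1369 lower, and library totals 673 and 2724. FPKM gave 707 and 2782 with pseudocount 1, and 696 and 2681 with 0.1. Leaving out a library gave 792 to 1604 genes higher and 643 to 1537 lower. Another scaling by relative log expression, both filters and DESeq2 stayed within 1.5 times of each count of factors. No alternative called a factor at RF against AL. Eif4h at LC against AL turned to 0.02 with library totals and 0.01 on FPKM with either pseudocount, and Denr to 0.08 on FPKM. The cause of these shifts was not tested.

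No source used here states that replicate numbers pair the libraries. Same-numbered deviations correlated at -0.05 to 0.07 between AL and LC and at -0.04 to 0.01 between AL and RF. Between LC and RF they correlated at 0.05 to 0.25, where pairs of unlike number ran from -0.21 to 0.12. In that order of comparisons, 1 of 3, 0 of 2 and 2 of 3 libraries correlated best with their own number. Whether LC and RF libraries are paired cannot be told from these values. The replicate block called 3 factors higher and 17 lower at LC against AL, 0 at RF against AL, and 12 higher and 5 lower at RF against LC. Over all genes it called 1957 higher and 1901 lower, 1 and 4, and 1613 and 1617, in that order of comparisons. With it, Eif2ak4, Eef2k, Eif4a3, Eif3h, Eif4h and Mknk2 lost their calls at LC against AL, and Eif2ak1 (-0.48) and Ddx3y (0.49) gained one. The lowest level of a called factor in any library was 1.82 CPM (Eif4ebp2).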
